A study of Mus musculus with 43 samples.

Results

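A set of 10 genes whose products write or erase 2 histone marks of active genes were followed through the series: the H3K4 methyltransferases Kmt2a, Kmt2b, Kmt2c, Kmt2d, Setd1a and Setd1b, the H3K4 demethylases Kdm5a and Kdm5b, and the H3K27 acetyltransferases Ep300 and Crebbp. Members were taken by their symbols in GENCODE vM21 and matched by gene identifier, version ignored, which found all 10 of 10 among the 55401 gene identifiers of the RNA tables. Although the set goes under the name of writers, Kdm5a and Kdm5b remove methyl groups from H3K4 and are described apart. The rule used no measured value.

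The study deleted Prmt1, the main enzyme for asymmetric arginine dimethylation, in mouse germ cells. Prmt1-dKO (dKO) mice carry Ddx4-CreERT2, a tamoxifen-inducible Cre under a germ cell promoter, with both Prmt1 alleles floxed. Tamoxifen on 3 days is recorded for the WT as well as the dKO RNA libraries and for the dKO peak lists, and not for the WT peak lists. RNA was measured at postnatal day 7 (P7) by bulk RNA-seq of testis (3 WT and 3 dKO libraries) and by Smart-seq2 of sorted spermatogonia (2 WT and 2 dKO libraries), and CUT&Tag gave 33 peak lists for H3K4me3, H3K27ac, H4R3me2a, H3R2me2a, H3R8me2a, H4R3me1 and H4R3me2s. Of these lists 31 are WT (15 at P7 and 16 at P14), and the 2 dKO lists are of H4R3me2s at P7. The study states a C57BL/6J background for all its mice. The labels put the bulk libraries under spermatogonia, whereas the protocol extracted RNA from whole testis. The P14 lists are titled spermatogonia but tagged spermatocyte, and the P14 H4R3me2s peak names carry the text SD17. The Smart-seq2 libraries labelled WT are described in the methods as Cre-positive animals heterozygous for the floxed allele, sorted by a GFP reporter. The study calls its replicates biological, while the labels do not tie libraries to animals, so the p-values below measure the spread between these libraries.

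H3K4me3 marks the promoters of active genes and H3K4me1 their enhancers. Kmt2a and Kmt2b act with menin at CpG-rich promoters, Kmt2c and Kmt2d deposit H3K4me1 at enhancers, and Setd1a and Setd1b supply most H3K4me3, while Ep300 and Crebbp acetylate H3K27 at enhancers and promoters. In the male germ line these marks accompany the switch from dividing spermatogonia to meiotic spermatocytes.

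The following stretches, chosen to set beside the H3K4me3 peaks described further on, show how much base composition differed at and near the starts of these genes. In the 4 promoters, taken from RefSeq (GRCm38.p6) as the 250 bases before the RefSeq start, capitals mark the GC box GGGCGG or its complement CCGCCC, the binding motif of Sp1-type factors. The Kmt2a promoter lies on the minus strand at chr9:44881290-44881539, that of Kmt2c on the minus strand at chr5:25498784-25499033, that of Kmt2d on the minus strand at chr15:98871206-98871455, and that of Kdm5b on the plus strand at chr1:134559928-134560177. The Setd1b stretch is no RefSeq promoter. It is 200 bases at the H3K4me3 peak upstream of its start in the first P14 list, read from the genome on the plus strand at chr5:123141643-123141842.
Kmt2a: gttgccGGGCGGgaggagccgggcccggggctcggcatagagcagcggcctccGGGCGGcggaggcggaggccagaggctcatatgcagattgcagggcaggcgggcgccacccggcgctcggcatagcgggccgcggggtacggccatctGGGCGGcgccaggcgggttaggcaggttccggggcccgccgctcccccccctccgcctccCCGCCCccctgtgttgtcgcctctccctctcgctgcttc
Kmt2c: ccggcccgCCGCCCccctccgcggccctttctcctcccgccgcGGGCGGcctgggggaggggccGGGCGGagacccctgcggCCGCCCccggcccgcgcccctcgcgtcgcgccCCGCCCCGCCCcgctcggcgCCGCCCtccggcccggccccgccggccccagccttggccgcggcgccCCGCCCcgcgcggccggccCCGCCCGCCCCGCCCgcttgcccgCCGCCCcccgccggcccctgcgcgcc
Kmt2d: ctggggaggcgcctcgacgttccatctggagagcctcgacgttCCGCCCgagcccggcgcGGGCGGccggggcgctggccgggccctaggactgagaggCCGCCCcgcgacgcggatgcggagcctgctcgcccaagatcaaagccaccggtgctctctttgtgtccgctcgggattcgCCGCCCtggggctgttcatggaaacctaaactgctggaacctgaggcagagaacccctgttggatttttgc
Kdm5b: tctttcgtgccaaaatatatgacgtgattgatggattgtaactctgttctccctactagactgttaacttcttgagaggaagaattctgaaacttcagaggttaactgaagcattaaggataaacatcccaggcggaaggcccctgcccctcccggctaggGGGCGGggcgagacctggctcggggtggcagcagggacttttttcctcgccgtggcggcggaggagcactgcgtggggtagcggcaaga
Setd1b: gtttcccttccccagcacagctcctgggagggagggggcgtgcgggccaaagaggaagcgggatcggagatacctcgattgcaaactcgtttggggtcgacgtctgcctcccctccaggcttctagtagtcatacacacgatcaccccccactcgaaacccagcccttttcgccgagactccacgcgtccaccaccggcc

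G and C made up 91.6% of the Kmt2c stretch, with 48 CpG and 12 GC boxes, overlaps counted. The Kmt2a stretch held 76.8% GC and 4 boxes, that of Kmt2d 67.6% and 4 boxes, and that of Kdm5b 54.4% and 1 box. The Setd1b stretch had 62.5% GC, 15 CpG and no GC box. Of the 10 members 7 had a promoter in the RefSeq table (all but Kmt2b, Setd1b and Kdm5a). A GC box, on either strand, was found in 6 of these 7 and in 32.7% of 32841 promoters of the same length. CCAAT or ATTGG was found in 0 of 7 (33.9% of promoters) and TATAAA or TTTATA in 0 of 7 (12.4%), which says only that these letters are not in these windows.

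Depth was similar across the RNA libraries, with 12396345 to 16598249 counts in bulk RNA-seq and 15610392 to 18547103 in Smart-seq2. Genes with a count numbered 22341 to 22555 in WT and 24052 to 24487 in dKO bulk libraries, and 17106 and 15587 in WT and 21404 and 20194 in dKO Smart-seq2 libraries, and the part of this in the genotype differences was not tested. The biological coefficient of variation was 0.155 in bulk RNA-seq and 0.767 in Smart-seq2, where the WT libraries correlated with each other at r = 0.788 across genes and the dKO libraries at r = 0.953. Prmt1, the deleted gene, was at 237, 219 and 247 CPM (counts scaled to library size) in the WT and 146, 199 and 158 in the dKO bulk libraries, a log2 fold change of -0.49 ± 0.13 (SE; edgeR adjusted p = 0.0334). It was negative in all 10 alternatives and below an adjusted p of 0.05 in 4 of them (0.00015 to 0.105). In Smart-seq2 it was at 216 and 149 in WT and 112 and 86.5 in dKO (-0.88 ± 0.26, adjusted p = 0.133). Gene-level counts include reads from exons outside the floxed ones. Among markers of other testis cells, the summed CPM in bulk RNA-seq (WT against dKO) was 2739 to 3075 against 1874 to 1930.3 for 10 Sertoli genes, 438 to 541 against 193 to 216 for 6 Leydig genes and 1103 to 1238 against 402 to 817 for 6 peritubular myoid genes, of which 5, 4 and 5 were lower at adjusted p below 0.05 (1 Leydig gene was higher). The sums were 1505 to 1737 against 1531 to 1632 for 12 germ cell genes, 108 to 129 against 131 to 167 for 8 macrophage genes, 192 to 208 against 189 to 224 for 6 endothelial genes and 505 to 721 against 493 to 1625 for 5 red blood cell genes. In Smart-seq2 they were 1874 to 1939.8 against 2612 to 2799 for germ cells, 227 to 243 against 312 to 414 for Sertoli cells, 0 to 5.74 against 52.7 to 61.2 for macrophages (Adgre1, Cd68, Csf1r, Mrc1, C1qa, C1qb and Lyz2 at 0 in both WT libraries), 0.366 to 8.17 against 10.3 to 13.2 for Leydig cells (Cyp17a1, Lhcgr and Cyp11a1 at 0 in every library), 5.09 to 9.83 against 7.22 to 10.5 for peritubular cells, 0 against 4.44 to 7.02 for endothelial cells and 8.22 to 9.68 against 25.6 to 66.7 for red blood cells. The part of these cells in the results for the members was not tested, and in bulk libraries fewer cells of a type and less RNA per cell cannot be told apart.

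All 10 genes had counts in every RNA library. On the TPM scale, which divides counts by transcript length, Kdm5b stood first in WT testis with 106 ± 9.50 (SD, n = 3), its lowest library above the highest of any other member. It was followed by Kmt2d (54.9 ± 7.15), Setd1a (54.6 ± 1.96) and Kmt2b (50.03 ± 4.58), whose ranges overlap, and then by Kdm5a (41.5 ± 6.70), Ep300 (32.0 ± 6.56), Crebbp (26.5 ± 4.82) and Kmt2c (21.0 ± 2.49), each overlapping its neighbour. Kmt2a (13.6 ± 3.31) and Setd1b (12.1 ± 1.75) were lowest and overlapped each other, below the range of Kmt2c. In dKO testis Kdm5b was again first and Setd1b last, with Kdm5b at 87.5 ± 16.6 TPM and Setd1b at 8.24 ± 3.21.

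Sorted spermatogonia gave another order. Kdm5a (144 ± 24.9 TPM, SD, n = 2) and Setd1a (132 ± 16.4) were highest in WT and overlapped, above Kmt2c (68.7 ± 8.38) and Kdm5b (67.95 ± 2.74), which in turn lay above the remaining 6. Kmt2a (31.9 ± 3.37), Crebbp (31.3 ± 12.6), Ep300 (30.8 ± 15.2), Kmt2d (14.5 ± 8.06) and Kmt2b (11.8 ± 4.96) each overlapped the next, and Setd1b (2.23 ± 1.21) lay below all of them. RSEM gives each gene a mean transcript length weighted by isoform, and TPM moves with it: that of Kmt2a was 14978 to 16463 bases in bulk RNA-seq but 5263 and 5744 in the Smart-seq2 WT and 10795 and 9464 in the Smart-seq2 dKO libraries. No order between the assays was tested.

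**Figure D1:**
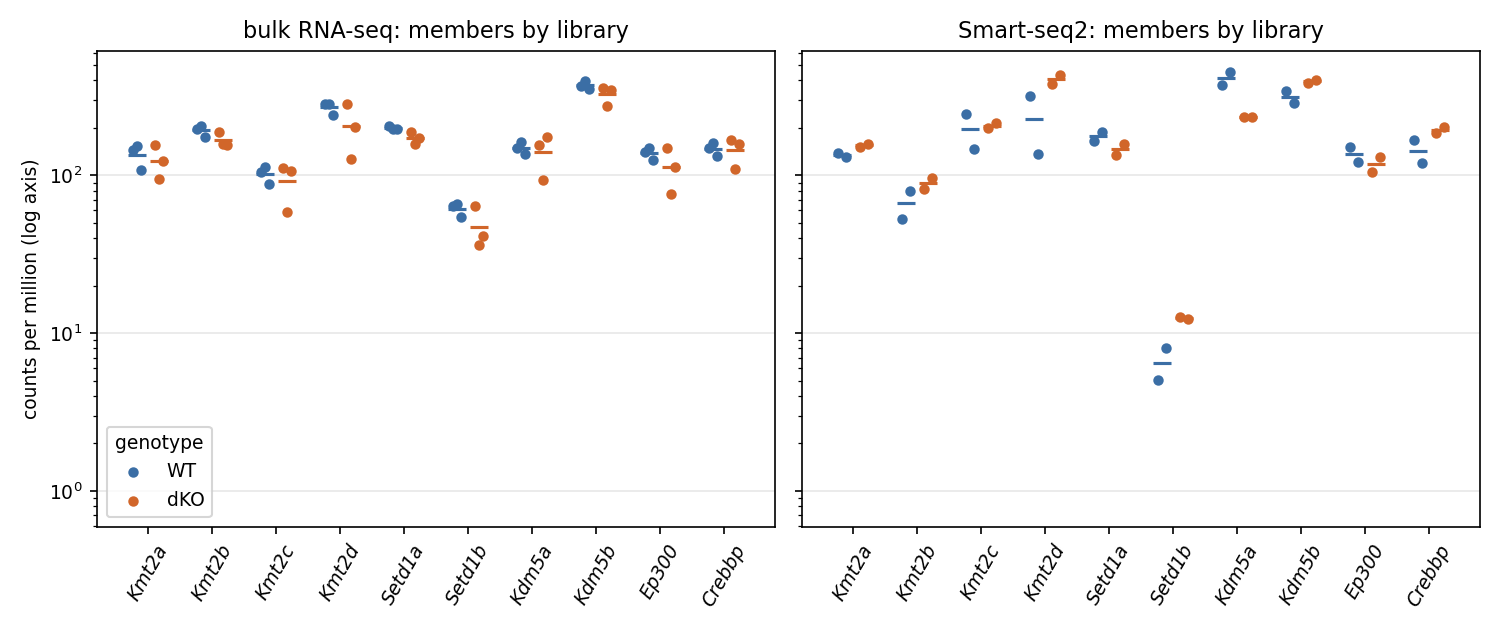
CPM (log axis) of the 10 genes in each library of bulk RNA-seq (left, 3 WT and 3 dKO) and Smart-seq2 (right, 2 WT and 2 dKO). Points are libraries and bars group means. Setd1b is lowest in both assays, at 36.1 to 66.3 in bulk RNA-seq and 5.02 to 12.7 in Smart-seq2, and Kdm5a in Smart-seq2 lies lower in both dKO libraries.

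The first comparison asked whether loss of Prmt1 altered the transcripts of these genes in whole testis at P7. None of the 10 members was called (edgeR, adjusted p below 0.05 and at least 2-fold), and none reached an unadjusted p of 0.05. Among all 16554 genes tested 5.32% were called higher and 1.78% lower in dKO, and 3016 were higher and 2591 lower at an unadjusted p below 0.05. All 10 members had a negative log2 fold change, with a median of -0.20, where 47.9% of all genes were negative and the median over all genes was 0.02. Groups were apart for 1 member, Setd1a, which was lower in dKO, as were 19.9% of all genes, and 0 members were higher with groups apart (20.9%).

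Kmt2a was at 145, 153 and 108 CPM in WT and 155, 95.2 and 123 in dKO, with the highest value in a dKO library (-0.12 ± 0.19, edgeR adjusted p = 0.691). Kmt2b, its relative with a menin-bound complex of its own, was at 198, 207 and 176 in WT and 188, 159 and 156 in dKO (-0.21 ± 0.12, adjusted p = 0.252). For Kmt2b a dKO library lay inside the WT range, and the other 2 lay below it.

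Kmt2c, one of the enhancer enzymes, was at 105, 113 and 88.4 CPM in WT and 111, 58.7 and 107 in dKO (-0.14 ± 0.22, edgeR adjusted p = 0.688). Kmt2d was at 286, 285 and 243 in WT and 284, 128 and 203 in dKO (-0.40 ± 0.24, adjusted p = 0.279). In both genes the second dKO library was the lowest of the 6, and the first lay among the WT values.

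Setd1a was at 207, 197 and 195 CPM in WT and 188, 159 and 173 in dKO, so that every dKO library was below every WT library (-0.21 ± 0.10, edgeR adjusted p = 0.197). Setd1b was at 63.8, 66.3 and 54.6 in WT and 64.2, 36.1 and 41.5 in dKO (-0.38 ± 0.20, adjusted p = 0.219). Here the first dKO library was as high as WT. Without it the Setd1b difference was -0.68 with an adjusted p of 0.0199, and over the other 9 alternatives its adjusted p stayed above 0.05.

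Of the demethylases, Kdm5a was at 149.8, 164 and 136 CPM in WT and 156, 93.3 and 174 in dKO (-0.08 ± 0.21, edgeR adjusted p = 0.810), with both its lowest and its highest value in dKO. Kdm5b was at 369, 394 and 355 in WT and 357, 275 and 347 in dKO (-0.19 ± 0.12, adjusted p = 0.315), again lowest in the second dKO library. The acetyltransferase Ep300 was at 141, 149.5 and 125 in WT and 149, 76.3 and 114 in dKO (-0.30 ± 0.21, adjusted p = 0.355). Its relative Crebbp was at 149.8, 159.6 and 132 in WT and 167, 109.6 and 157 in dKO (-0.02 ± 0.16, adjusted p = 0.937), with overlapping groups in both.

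The second dKO bulk library was the lowest of 6 for 9 of the 10 members (the exception being Kmt2b), as it was for 28.5% of all genes. The members deviated there by a median of -0.49 on the log2 scale from their mean, against 0.03 over all genes. Without that library the median log2 fold change of the members was -0.08, and those of Kmt2a, Kmt2c, Kdm5a and Crebbp turned positive (0.04, 0.10, 0.14 and 0.14). The members are long, with 7 in the 4000 to 8000 base class of mean transcript length and 3 above 8000 bases. The median log2 fold change of all genes was 0.17 below 2000 bases (6164 genes), -0.01 from 2000 to 4000 (6891 genes), -0.18 from 4000 to 8000 (3159 genes) and -0.24 above 8000 (340 genes). Genes above 8000 bases deviated by a median of -0.56 in the second dKO library, and by -0.08 and -0.07 in the others. The part of transcript length in the members' values was not tested.

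In sorted spermatogonia the same comparison called none of the 10 members, and edgeR called 0.00% of 16443 genes. At an unadjusted p below 0.05 edgeR gave 2702 higher and 1209 lower genes, 1 of them a member (Kdm5a), and among the 16443 genes DESeq2 called 1234 higher and 658 lower (11.5%), no member among them. Log2 fold changes were positive for 7 members and negative for 3, with a median of 0.26 against 0.15 over all genes. Groups did not overlap for 6 members higher in dKO (36.3% of all genes) and for 2 lower, Setd1a and Kdm5a (20.3%).

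Kdm5a, which removes di- and trimethyl groups from H3K4, was at 376 and 449.9 CPM in WT and at 235 and 234 in dKO. Both dKO libraries were below both WT libraries and nearly alike, and the log2 fold change was -0.82 ± 0.16 (edgeR adjusted p = 0.0774, unadjusted p = 0.00458), the lowest p among the members. DESeq2 gave -0.87 with an adjusted p of 5.27e-05, where 14.9% of the 16443 genes passed 0.05. The adjusted p of Kdm5a was below 0.05 in 3 of 8 alternatives, and its log2 fold change ranged from -0.92 to -0.66. Ccdc77 starts on the opposite strand 84 bases from the nearest Kdm5a start. It was at 10.2 and 33.1 CPM in WT and 15.2 and 15.4 in dKO (-0.51, adjusted p = 0.787), far below Kdm5a in every library. Kdm5b was at 341 and 289 in WT and 387 and 401 in dKO, higher in both dKO libraries (0.32 ± 0.15, adjusted p = 0.309).

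Among the methyltransferases, Kmt2a was at 139.5 and 130.1 CPM in WT and 152 and 159 in dKO (0.20 ± 0.15, edgeR adjusted p = 0.533). Kmt2b was at 53.2 and 80.2 in WT and 82.4 and 97.0 in dKO (0.43 ± 0.28, adjusted p = 0.469). Both were higher in every dKO library, Kmt2b by a margin smaller than the gap between its WT libraries. Kmt2c was at 246 and 146 in WT and 199.7 and 214 in dKO (0.08 ± 0.29, adjusted p = 0.921), inside the WT range. Kmt2d was at 319 and 136 in WT and 381 and 432 in dKO (0.84 ± 0.43, adjusted p = 0.343). Its WT libraries differed by more than its dKO mean did from the higher of them.

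Setd1a was at 166 and 189 CPM in WT and 136 and 159 in dKO (-0.27 ± 0.17, edgeR adjusted p = 0.457), lower in both dKO libraries as in testis. Setd1b was at 5.02 and 8.01 in WT and 12.7 and 12.4 in dKO (0.94 ± 0.81, adjusted p = 0.599). Its groups were apart, at the lowest level of the 10 genes. For the acetyltransferases, Ep300 was at 151 and 121 in WT and 105 and 131 in dKO (-0.21 ± 0.21, adjusted p = 0.666), and Crebbp at 167 and 119.5 in WT and 185 and 203 in dKO (0.44 ± 0.22, adjusted p = 0.335). Ep300 groups overlapped and those of Crebbp did not.

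The WT pair decided several of these values. Without the first WT library Crebbp (0.72), Kdm5a (-0.92), Kmt2c (0.52) and Kmt2d (1.59) passed an edgeR adjusted p of 0.05, as did 51.2% of the 17942 genes then tested, and Kmt2d was past 2-fold (41.4%). Without the second WT library Kmt2b (0.77), Kdm5a (-0.66) and Setd1b (1.34) passed, as did 43.2% of 18164, with Setd1b past 2-fold (33.7%), and Kmt2c turned to -0.23. With 1 library left out Kmt2d ranged from 0.37 to 1.59, Crebbp from 0.23 to 0.72, Kmt2b from 0.18 to 0.77 and Setd1b from 0.66 to 1.34. With either dKO library left out, the spread within groups came from the WT pair alone, so passing could not be judged there. Only Kdm5a passed in both WT omissions, in which the lone WT sample is assumed to vary like the dKO pair.

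On TPM the direction was opposite for 4 members in Smart-seq2 (11.9% of all genes) and for 0 in bulk RNA-seq (17.3%). The log2 ratio of mean TPM was -0.91 for Kmt2a, -0.47 for Kmt2c, -0.22 for Setd1b and -0.02 for Kdm5b. For Kmt2a and Setd1b the mean transcript length in dKO was 1.84 and 1.76 times that in WT, a change of over 1.5 times that 8.73% of genes showed. That of Setd1a was 1929.9 and 1848 bases in WT and 2636 and 2749 in dKO.

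**Figure D2:**
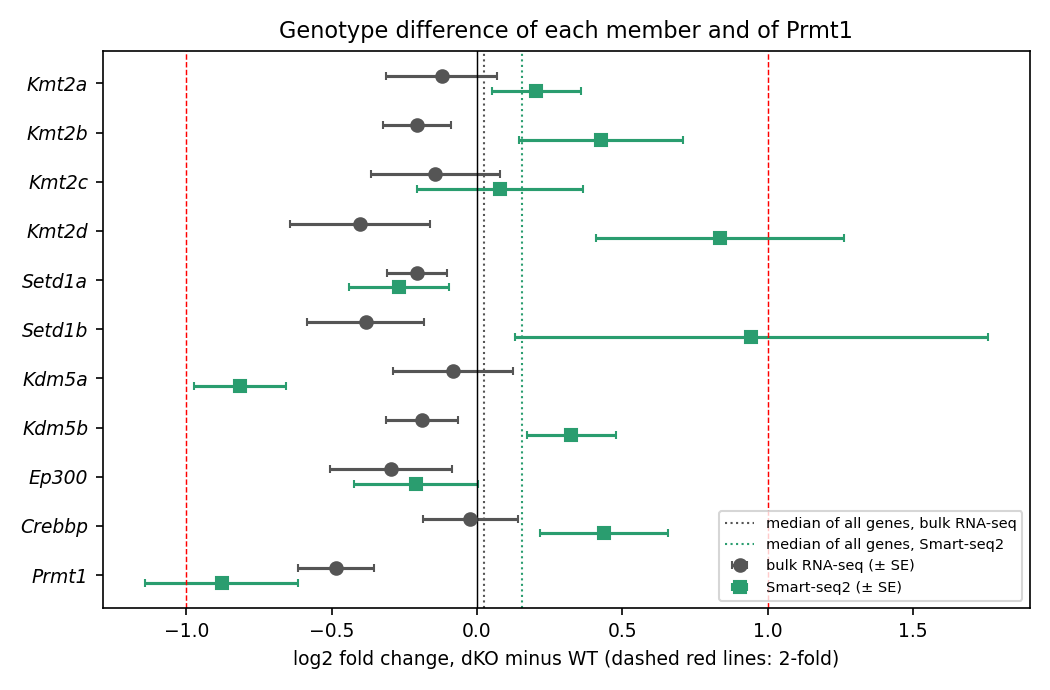
Log2 fold change (dKO minus WT, edgeR, ± SE) of the 10 genes and Prmt1 in bulk RNA-seq (circles) and Smart-seq2 (squares), with 2-fold changes as dashed lines and the medians of all genes as dotted lines. Bulk values of the members lie between -0.40 and -0.02, and Smart-seq2 values between -0.82 for Kdm5a and 0.94 for Setd1b.

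Whether the genotype difference depended on the assay was tested by the interaction in a joint edgeR fit of all 10 libraries. The fit gave each gene the same dispersion in both assays, although their biological coefficients of variation were 0.155 and 0.767. Its SE can therefore be too small for Smart-seq2. It passed for 1 member, Setd1b, and for 19.0% of 19608 genes, 14.7% being more positive in Smart-seq2 as Setd1b was. The Setd1b difference was 1.42 ± 0.42 larger in Smart-seq2 in the joint fit (edgeR adjusted p = 0.0466), beside -0.38 ± 0.20 in testis and 0.94 ± 0.81 in spermatogonia in the separate fits. It did not pass in 10 of 13 alternatives, with adjusted p from 0.00487 to 0.142. For the other methyltransferases the difference was 1.32 for Kmt2d (adjusted p = 0.132), 0.72 for Kmt2b (0.0904), 0.41 for Kmt2a (0.423), 0.31 for Kmt2c (0.723) and 0.03 for Setd1a (1). It was 0.60 for Kdm5b (0.0753), -0.64 for Kdm5a (0.235), 0.55 for Crebbp (0.264) and 0.17 for Ep300 (0.847), where the median over all genes was 0.22.

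Around the members, 56 other genes of the same pathways were examined, and edgeR called none in either assay. DESeq2 called 5 in Smart-seq2 (Pagr1a, Setmar, Phf8, Taf3 and Prdm9), beside 11.5% of the 16443 genes. In bulk RNA-seq 4 were higher and 7 lower at an edgeR adjusted p below 0.05, none of them by 2-fold, where 10.6% and 8.51% of all genes passed that p at any fold. Core and complex-specific subunits of the methyltransferase complexes had 0 higher and 3 lower (Paxip1, Wdr82 and Hcfc1) of 13, with a median log2 fold change of -0.25. Other H3K4 methyltransferases had 1 higher (Smyd3) of 6 (median 0.15), other H3K4 demethylases 1 lower (Kdm5c) of 4 (-0.09), other lysine acetyltransferases 1 higher (Kat8) of 8 (0.05), and histone deacetylases 0 of 6 (-0.03). The 14 readers of H3K4me3 or acetyl-lysine, Brdt among the higher genes, had a median of -0.17, and the H3K27 methylation genes had 1 higher (Ezh1) and 2 lower (Ezh2 and Kdm6b) of 5 (-0.22).

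The lowest p-values in bulk RNA-seq belonged to Kdm5c, the X-linked relative of Kdm5a and Kdm5b, which fell from 110.3 to 125 CPM in WT to 57.3 to 77.7 in dKO (-0.83 ± 0.13, edgeR adjusted p = 0.00387). Ezh2, the H3K27 methyltransferase of dividing cells, fell from 69.4 to 78.0 to 36.7 to 46.9 (-0.78 ± 0.12, adjusted p = 0.00401), and its relative Ezh1 rose from 69.1 to 77.7 to 90.1 to 129 (0.61 ± 0.14, adjusted p = 0.0172). The H3K27 demethylase Kdm6b fell by 0.63 on the log2 scale (adjusted p = 0.00984), the germ cell reader Brdt rose by 0.77 (adjusted p = 0.00851) and Smyd3 rose by 0.50 (adjusted p = 0.0172). These 6 genes, picked for the lowest p, had groups that did not overlap. Of the 56 pathway genes 9 were higher and 15 lower with groups apart, as were 20.9% and 19.9% of all genes. In Smart-seq2 Brdt had the opposite sign (43.5 and 51.2 CPM in WT, 27.7 and 28.6 in dKO, -0.75, edgeR adjusted p = 0.248). So did Kdm6b (106 and 132 in WT, 181 and 221 in dKO, 0.75, adjusted p = 0.103), and both had groups apart. Kdm5c was also positive there (37.5 and 16.6 in WT, 30.3 and 30.7 in dKO, 0.17, adjusted p = 0.905), with overlapping groups. Ezh2, Ezh1 and Smyd3 kept their bulk sign.

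In Smart-seq2 the medians of the lists were 0.12 for complex subunits, 0.13 for other methyltransferases, 0.53 for other demethylases, 0.17 for other acetyltransferases, 0.09 for deacetylases, 0.10 for readers and 0.20 for H3K27 methylation, against 0.15 over all genes. The lowest p-values, none past the threshold, belonged to Pagr1a, a subunit of the Kmt2c and Kmt2d complexes (2.25 and 3.41 CPM in WT, 25.4 and 30.98 in dKO, edgeR adjusted p = 0.0774), to Ash2l, a core subunit of all 6 methyltransferases (0.78, adjusted p = 0.0795), and to Setmar (at most 0.0517 in WT, 4.24 to 5.41 in dKO, adjusted p = 0.0802). On the lower side stood the H3K4me3 readers Phf8 (-1.25, adjusted p = 0.0774) and Taf3 (-0.99, adjusted p = 0.0774) and the meiotic H3K4 methyltransferase Prdm9 (-1.55, adjusted p = 0.139). In bulk RNA-seq Prdm9 was higher in dKO with groups apart (4.35 to 4.88 CPM in WT, 5.39 to 11.1 in dKO, 0.83, edgeR adjusted p = 0.058). Ash2l was at -0.03 there, and Pagr1a, Setmar, Phf8 and Taf3 had the same sign in both assays.

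The CUT&Tag lists were then asked which of the 7 marks stood at the promoters of the members, as a peak summit within 3000 bp of any transcript start in at least 2 replicate lists. A list gives presence and the bases covered, not a level, since read depth is unknown. Shares are given beside those of 11179 protein-coding genes, here called expressed, with a mean TPM of at least 1 in the WT libraries of both assays. This P7 set also serves for P14. At P7 29 of the 70 pairs of member and mark were marked, and at P14 56. The share of expressed genes marked ran from 15.7% to 94.2% by mark at P7 and from 47.9% to 95.8% at P14. It rose for each of the 7 marks, so the rise is not particular to the members. The P14 lists were longer, with 18423 to 55908 peaks against 15361 to 36145 in the P7 WT lists.

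H3K4me3 marked 10 of 10 members at P7 (94.2% of expressed genes) and 10 at P14 (95.8%), in every list. H3K27ac marked 7 at P7 (54.7%), all but Kmt2b, Setd1b and Kdm5b, and 9 at P14 (83.0%), all but Setd1b. All 66 H3K4me3 peaks at member promoters had q of at most 0.01, and of 66 H3K27ac peaks 8 of 26 did at P7 and 28 of 40 at P14.

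The arginine marks were thinner at P7. H4R3me2a, the product of Prmt1 on histone H4, marked Kmt2d, Ep300 and Crebbp at P7 (3 members, 23.3% of expressed genes) and 9 members at P14 (71.4%), all but Setd1b. The Ep300 summits at P7 were at different starts, 624 and 60188 bases into the gene, and 1 of the 2 P14 lists with a Kmt2d summit had it at inner starts only. H3R2me2a marked 2 at P7 (Kmt2b and Kmt2d, 15.7%), with both Kmt2d summits at inner starts, 36778 and 35384 bases into the gene, and 9 at P14 (73.0%), all but Kdm5a. H3R8me2a marked 3 at P7 (Kmt2a, Kmt2b and Kmt2c, 15.9%) and 7 at P14 (54.1%). H4R3me1 marked 1 at P7 (Kmt2c, 16.8%) and 6 at P14 (47.9%), and H4R3me2s 3 at P7 (Kmt2a, Kmt2b and Setd1a, 29.8%) and 6 at P14 (55.8%). For H4R3me2s the rule was looser at P14, needing 2 of 3 lists there and 2 of 2 at P7. Its lists held 7 and 4 members at P7 and 7, 6 and 5 at P14. The arginine peaks were weak: of 54 at member promoters in the P7 WT lists, 5 had q of at most 0.01, and of 144 at P14, 54. Of the P7 WT peaks 36 lay at the outermost start and 18 at inner starts.

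Members differed in how many marks they carried. At P14 Kmt2c and Setd1a had all 7, Kmt2a, Kmt2b, Kdm5b, Ep300 and Crebbp 6, and Kmt2d and Kdm5a 5. Setd1b had 2 at P14, the fewest, and 1 at P7, as did Kdm5b. Its summits were in 6 of 16 lists at P14 and 4 of 15 at P7, the fewest of the 10 at each age. Its P14 H3R2me2a summits lay 17601 bases into the gene in the first list and 23752 in the second, near different inner starts.

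**Figure D3:**
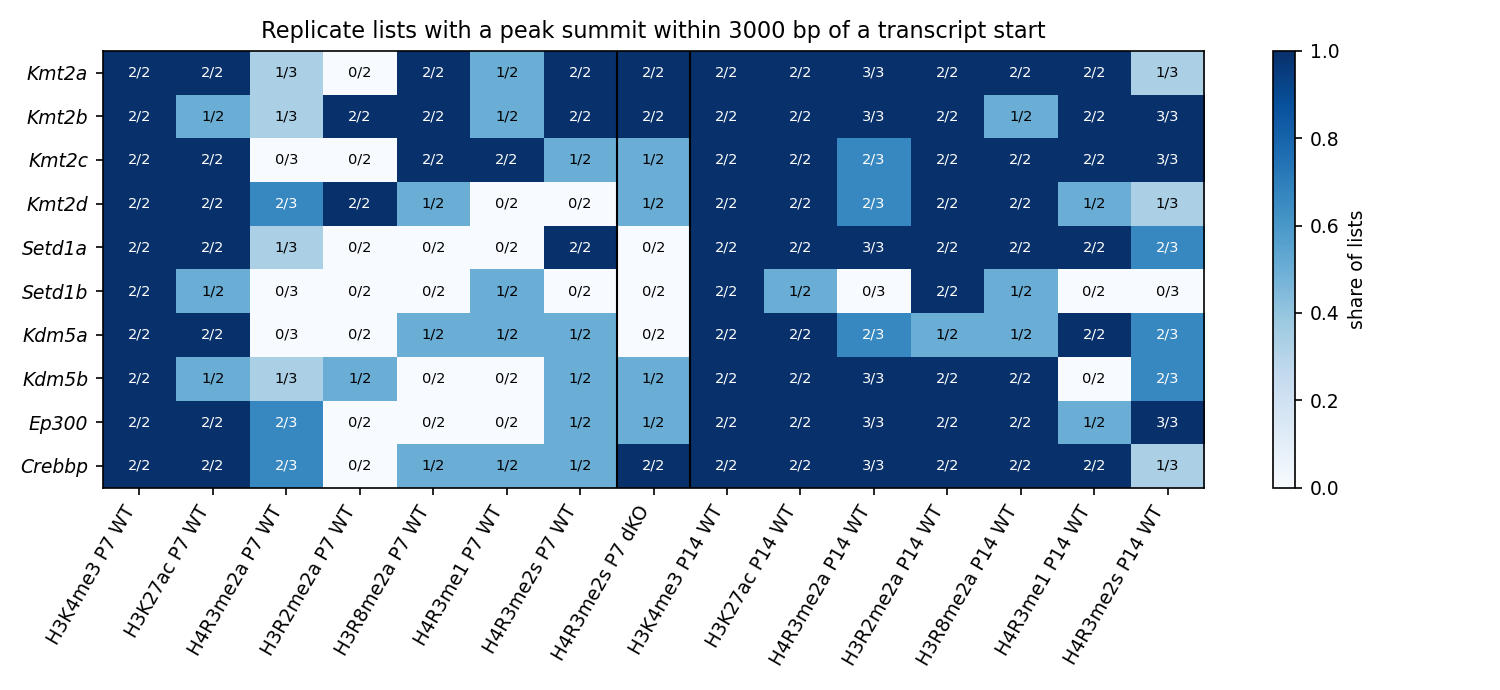
Replicate lists with a peak summit within 3000 bp of a transcript start, for each gene (rows) and each mark, age and genotype (columns), as the number of lists with a summit over the number of lists and as a colour for that share. H3K4me3 fills its columns at both ages, and Setd1b has 0 lists of H4R3me2a at either age.

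H4R3me2s, the symmetric mark of the same arginine, is the one mark with lists of both genotypes. In the WT lists 7 and 4 members had a summit and in the dKO lists 5 and 5, a mean difference of -0.5 (exact permutation test, two-sided, p = 1, where 2 against 2 lists allow no p below 0.333). The difference was -1.5 at equal list length and at the outermost start only. Genotype and the recorded tamoxifen treatment cannot be told apart between these lists. Of expressed genes 51.2% and 48.0% had one in the WT lists and 37.5% and 31.5% in the dKO lists. Kmt2a and Kmt2b had a summit in all 4 lists, though at different starts (in the second WT and second dKO list that of Kmt2a lay 60066 and 60963 bases into the gene, and in the first dKO list that of Kmt2b 4736 bases), Setd1a in both WT and no dKO list, and Crebbp in 1 WT and both dKO lists, which makes 3 members marked in dKO (15.1% of expressed genes).

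The bases that H3K4me3 peaks covered within 3000 bp of the outermost start were many at Kmt2c, with 2679 and 2273 at P7 and 2436 and 2415 at P14. Among expressed genes with an H3K4me3 peak there, the medians were 1264 and 1192 at P7 and 1167 and 1202 at P14. Kmt2d had 2510 and 2137 at P7 and 1808 and 1774 at P14, and Kmt2a 2306 and 1772 at P7 and 2110 and 2306 at P14. All members but Setd1b lay above the medians in every list. Setd1b had 1526 and 1255 at P7 and 562 and 983 at P14, above the medians at P7 and below them at P14. Among expressed genes with such a peak its P14 values were at the 6.41 and 27.6 percentiles. The other members had 1288 to 2119 at P7 and 1406 to 2041 at P14.

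Lower at P14 in both lists were 5 members (Kmt2b, Kmt2d, Setd1a, Setd1b and Ep300), as were 27.9% of expressed genes, and 0 were higher (18.5%). H3K27ac went the other way. It covered more bases at P14 in both lists at 8 members (58.6%) and fewer at 0 (0.778%). At Kmt2c it covered 513 and 264 bases at P7 and 2091 and 1495 at P14, at Kmt2b 0 and 230, then 1476 and 1222, and at Crebbp 257 and 285, then 1235 and 1014. Ep300 and Kdm5a were covered well at both ages, with 1077 and 1112, then 1437 and 1447, and with 1182 and 1359, then 1502 and 1811. At Setd1b it covered 0 bases in both P7 lists and 198 and 0 at P14. Among expressed genes with an H3K27ac peak there, the medians were 504 and 553 at P7 and 900.0 and 844 at P14. Genes without such a peak were left out of these medians. The part of the longer P14 lists in the covered bases was not tested.

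**Figure D4:**
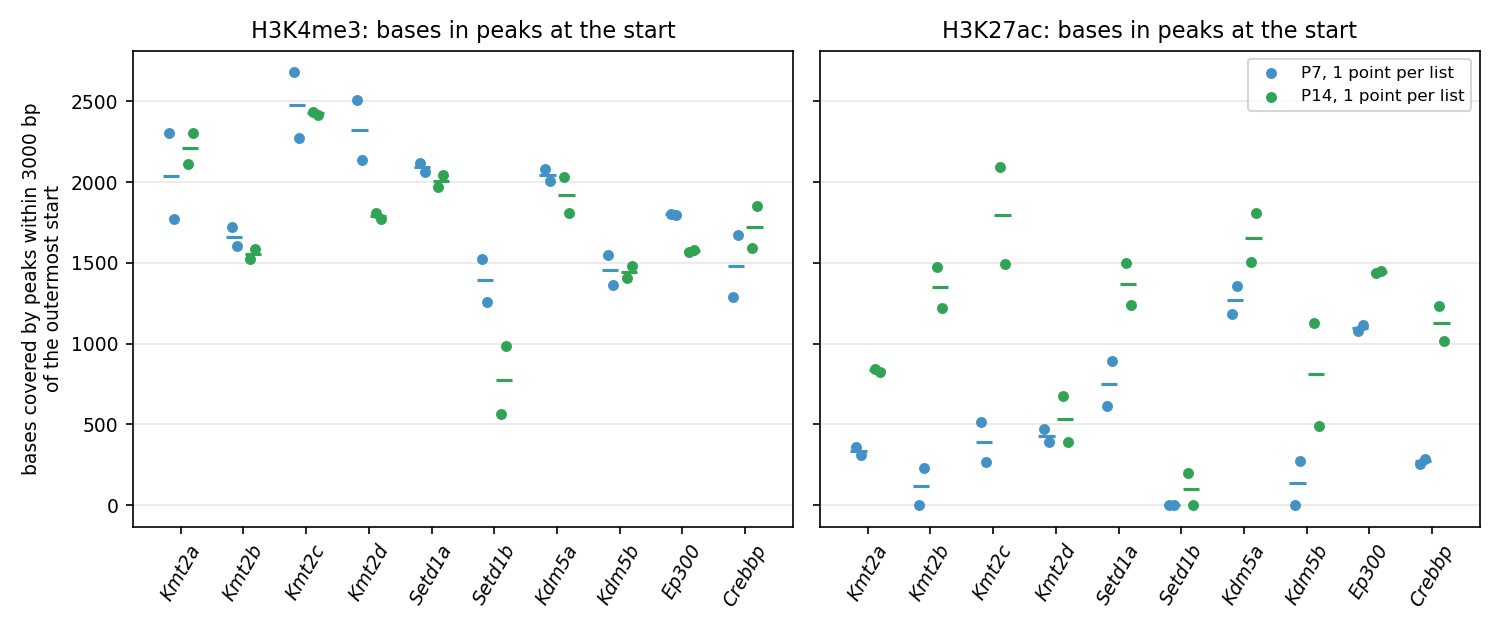
Bases covered by H3K4me3 peaks (left) and H3K27ac peaks (right) within 3000 bp of the outermost transcript start of each gene, with 1 point per list and bars for the means of the 2 lists at P7 and P14. H3K27ac points lie higher at P14 than at P7 for 8 genes, and Setd1b is lowest in both panels at P14.

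The H3K4me3 peaks of 3 members left the start itself free. At Kmt2b the start base lay in a gap of 264 and 294 bases between peaks at P7 and of 244 and 239 at P14, at Kmt2c of 345, 414, 335 and 350, and at Setd1b of 267, 378, 1530 and 581. The start was covered in all 4 lists at Kmt2d, Setd1a, Kdm5a and Kdm5b. Kmt2a had a gap of 560 bases in the second P7 list alone and Crebbp of 654 in the first P7 list alone, and at Ep300 the peak began just inside the gene in 3 lists.

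Such a gap at the start was found in 5.12% and 5.82% of expressed genes with a peak at P7 and in 4.5% and 3.89% at P14. It was more frequent among genes with over 70% GC in the 1000 bases around the start (20.6% and 24.4%, then 17.4% and 15.8%) than among the rest (3.87% and 4.32%, then 3.47% and 2.95%). The 3 members with a gap in every list had 72.6% (Kmt2b), 77.2% (Kmt2c) and 72.4% (Setd1b) GC there, and the 2 with a gap in a single list 76.2% (Kmt2a) and 75.4% (Crebbp). The members without had 65.6% (Kmt2d), 55.8% (Setd1a), 56.9% (Kdm5a), 60% (Kdm5b) and 66.9% (Ep300), where the median of expressed genes was 58.9%. The printed Kmt2c promoter lies in its gap and overlaps no H3K4me3 peak, that of Kmt2a overlaps one in 3 of 4 lists, and those of Kmt2d and Kdm5b in all 4. The Setd1b stretch lies inside a peak in 3 lists, and it was cut at a peak of the first P14 list. The part of base composition in these gaps was not tested.

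**Figure D5:**
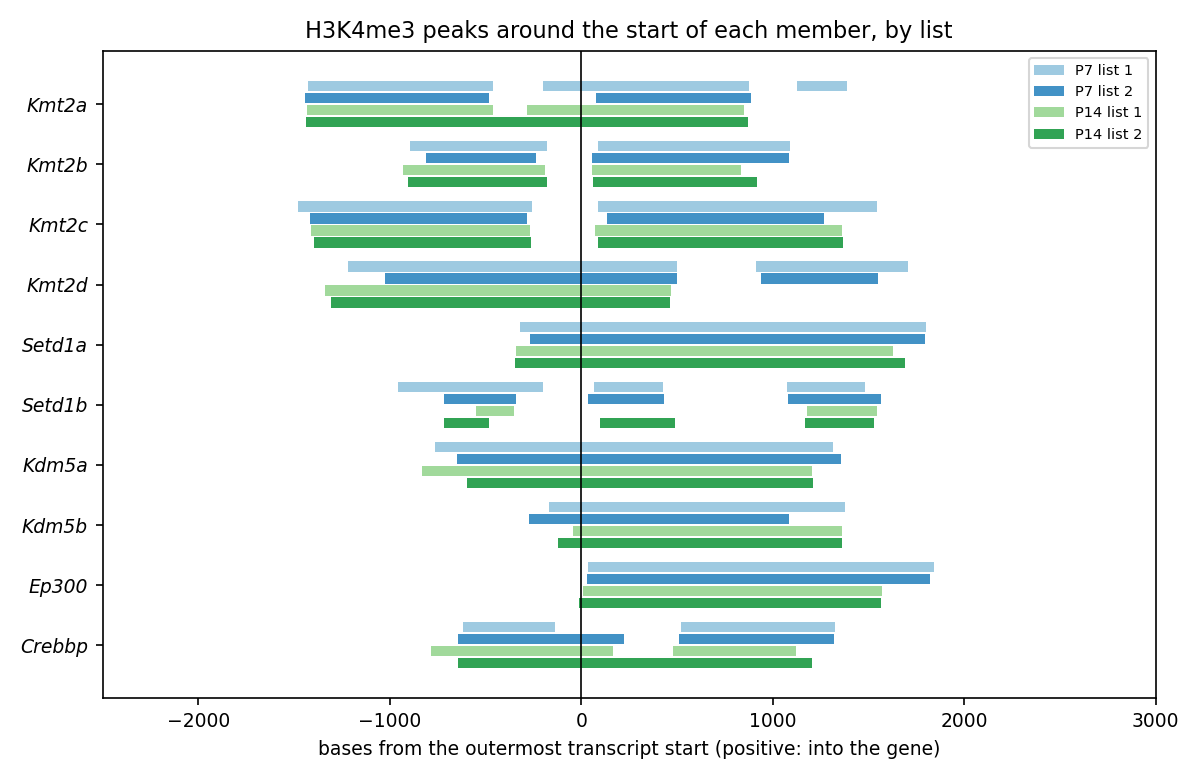
H3K4me3 peaks around the outermost transcript start of each gene (0 on the axis, positive values into the gene, in bases), with 1 bar row for each of 2 P7 and 2 P14 lists. Kmt2b, Kmt2c and Setd1b have a gap at 0 in all 4 lists, and Kdm5a, Kdm5b, Kmt2d and Setd1a are covered there.

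Outside the outermost starts, Crebbp had the 2 H3K4me3 peaks at an inner start among the members. They had 213 and 257 bases, with summits 84799 and 84636 bases into the gene in the first and second P14 list, and no P7 list had an H3K4me3 peak there.

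The members lie at chr9:44803355-44881296 (Kmt2a), chr7:30568858-30588726 (Kmt2b), chr5:25271798-25498783 (Kmt2c), chr15:98831669-98871204 (Kmt2d), chr7:127776670-127800122 (Setd1a), chr5:123142193-123168629 (Setd1b), chr6:120364124-120444574 (Kdm5a), chr1:134560171-134635285 (Kdm5b), chr15:81585351-81652077 (Ep300) and chr16:4081328-4213997 (Crebbp) in mm10, each protein-coding, with 4 to 10 start sites. Other genes start within 3000 bp of Kmt2a (AC061963.1, antisense), Kmt2b (Mir3569), Kmt2c (4831440E17Rik), Kmt2d (Gm49437 and 5730414N17Rik), Setd1b (AI480526), Kdm5a (Ccdc77) and Ep300 (Gm23880 and 1110025M09Rik), so a promoter peak at these members may belong to either gene. Whether the counting used strand is not stated, and reads of a member and of an antisense partner cannot be told apart.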

How the data were processed

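RNA was measured in 10 libraries (3 WT and 3 dKO of bulk RNA-seq, 2 and 2 of Smart-seq2) and chromatin in 33 CUT&Tag peak lists. For RNA, the authors trimmed reads with fastp (0.23.2), mapped them to mm10 and ran RSEM, and deposited expected counts, TPM and FPKM per gene. The expected counts as deposited are not normalized, and the TPM and FPKM values were scaled within each library by the authors' RSEM run. For CUT&Tag, the authors called peaks per sample with MACS2 (2.1.0) and deposited each peak's fold enrichment (a ratio) and −log10 p and q values. The CUT&Tag aligner, any control sample and the RSEM annotation were named in no source read for this work. The score column and FPKM were not used here.

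Expected counts were rounded and tested with edgeR 4.0.16 (R 4.3.3; quasi-likelihood, TMM, filterByExpr with a minimum count of 10), within each assay, with Benjamini-Hochberg adjustment over all genes tested. Genes were called at an adjusted p below 0.05 and at least 2-fold. CPM used TMM library sizes. Settings tried were DESeq2 1.42.0, RLE size factors, no filter, a replicate block, each library left out and TPM in place of counts, and for peaks a summit within 1000 bp, any overlap, q of at most 0.01, at least 1 list, equal list length, each list left out and the outermost start only. Scripts were tested on simulated data. Of 55401 gene identifiers 55141 matched GENCODE vM21 and 260 did not. Depth limits counting precision, and the spread between libraries covers more than counting error.

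Named were the 10 members, Prmt1, called genes of 7 fixed pathway lists (56 genes) or, with none called, the 3 per direction with the lowest p, and neighbours within 3000 bp. Marker lists are given as sums, with those genes named that were at 0. Kat8, Paxip1, Wdr82 and Hcfc1 were named after their values were seen, and 1 listed gene is not reported here. The members and all lists were chosen with earlier results of these data known.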

Additional observations from a re-analysis of the deposited data

Results flagged for a closer look

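The genotype difference of Setd1b differed between the assays: dKO minus WT in log2 was 1.42 larger in Smart-seq2 than in bulk RNA-seq (edgeR interaction, SE 0.42, adjusted p = 0.0466), with 3 of 3 WT bulk libraries between 54.6 and 66.3 CPM, the dKO bulk libraries at 64.2, 36.1 and 41.5, and the Smart-seq2 libraries at 5.02 and 8.01 in WT and 12.7 and 12.4 in dKO. On TPM the Smart-seq2 direction was opposite (-0.22). The joint fit gave the gene the same dispersion in both assays, whose spread differed.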

How the results depend on the processing

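In bulk RNA-seq no member was called under any alternative, and the median log2 fold change of the members stayed negative, from -0.31 to -0.08 with 1 library left out. Of 50 member values under another tool or setting 50 kept direction and side of the threshold, and of 60 with 1 library left out 54 did. Left out, the second dKO library turned Kmt2a (0.036), Kmt2c (0.096), Kdm5a (0.14) and Crebbp (0.14), and the second WT library turned Crebbp (0.03). Over all omissions of 1 library Kmt2a ranged from -0.33 to 0.036, Kmt2c from -0.31 to 0.096, Kdm5a from -0.27 to 0.14 and Crebbp from -0.16 to 0.14. The others stayed negative: Kmt2d from -0.73 to -0.15, Setd1b from -0.68 to -0.23 and Ep300 from -0.56 to -0.08. Kmt2b ranged from -0.32 to -0.16, Setd1a from -0.29 to -0.15 and Kdm5b from -0.28 to -0.08. In Smart-seq2 leaving out 1 library gave 0 to 1 members called and turned Kmt2c (-0.23 without the second WT library, in a range up to 0.52), and the ratio of mean TPM, added after seeing the data, turned Kmt2a (-0.91), Kmt2c (-0.47), Setd1b (-0.22) and Kdm5b (-0.023).

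Of the 56 pathway genes DESeq2 called 5 in Smart-seq2 (11.5% of all genes edgeR tested). Leaving out 1 library called 0 to 12 there, with 12 in each WT omission, where 41.4% and 33.7% of all genes were called, and 0 to 1 in bulk RNA-seq.

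The interaction passed for 0 members with RLE size factors, without the filter and with the replicate block, in which Setd1b had adjusted p of 0.0691, 0.0810 and 0.0858 (1.49 with the block), and for 0 to 4 members with 1 library left out. Setd1a turned to -0.10 with RLE and -0.011 without the filter, and with 1 library left out it ranged from -0.14 to 0.15, Kmt2c from -0.039 to 0.75 and Ep300 from -0.15 to 0.36. The others kept their sign: Setd1b from 1.13 to 1.79, Kmt2d from 0.85 to 2.08, Kmt2b from 0.47 to 1.05 and Kmt2a from 0.14 to 0.48. Kdm5b ranged from 0.38 to 0.74, Crebbp from 0.27 to 0.83 and Kdm5a from -0.98 to -0.50. The cause was not tested.

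Replicate numbers did not pair the samples: the deviations of same-numbered bulk libraries correlated at 0.08, -0.22 and -0.12, and those of Smart-seq2 at 0.018. The block called 0 members in bulk RNA-seq and in Smart-seq2.

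The pairs of member and mark at P7 fell from 29 to 14 at q of at most 0.01, rose to 50 where 1 list sufficed, and ranged from 26 to 36 with 1 list left out. At P14 they ranged from 51 to 58. The H4R3me2s difference between genotypes was 0 with summits within 1000 bp and -1.5 at equal list length and at the outermost start only (the latter added after seeing the data), and ranged from -2 to 1 with 1 list left out, turning to 1 without the first WT list. Read depth behind the peaks is unknown, and 2 libraries a group limit Smart-seq2.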
